A study of Mus musculus with 35 samples.

Results

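The comparison described here sets whole lung of mice that inhaled 120 ppm styrene against whole lung of mice that inhaled clean air (0 ppm). It rests on the 5 arrays labelled 120 ppm and the 5 labelled 0 ppm, which are 10 of the 35 arrays of a dose series. The other groups, also of 5 arrays each, inhaled 1, 5, 10, 20 or 40 ppm, and the series asked how gene expression in the lung changes with the inhaled dose. All animals were wild-type adult male C57Bl/6 mice, exposed to styrene or air in a single session of 6 h, with tissue taken on the following morning. RNA from whole lung was biotin-labelled with a 3' amplification kit and hybridised to Affymetrix arrays. Every probe set that was not a control and was listed with a single gene symbol was eligible, and the probe set that was brightest over the 35 arrays stood for its gene, which gave 17097 genes. Values are log2 signals, and a difference is the mean at 120 ppm minus the mean at 0 ppm, with the standard error (SE) of the limma fit. The labels call the arrays of a group biological replicates, and their titles carry a sample number whose meaning is not stated. The number LP_15 stands in the titles of an array at 1 ppm and of an array at 5 ppm, both in the fit of all 35 arrays. The limma p-values measure the spread between replicate arrays, pooled over all 35 arrays of the 7 doses and not over these 10 alone.

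Styrene is a volatile aromatic hydrocarbon that the lung itself oxidises. In mice much of that oxidation takes place in club cells, the secretory cells of the small airways, where CYP2F2 and CYP2E1 convert styrene to reactive products that epoxide hydrolase and glutathione transferases remove. Club cells also secrete the uteroglobin-like proteins of the airway lining and can divide to repair the airway epithelium.

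The 10 arrays carried the signal of lung tissue: the surfactant gene Sftpc lay between 13.81 and 13.87 on every one of them, and the club cell secretory gene Scgb1a1 between 13.49 and 13.96. The 120 ppm arrays stood apart from the rest of the series in measures of the arrays themselves. Poly-A spike-ins, bacterial RNAs added before labelling, had a mean of 6.44 to 6.74 at 0 ppm and of 7.73 to 8.67 at 120 ppm, a difference of 1.67 (3.18-fold), and the highest mean on the other 30 arrays was 6.89. All 24 poly-A probe sets were higher on each 120 ppm array than on any 0 ppm array. The 23 nonspecific-hybridisation controls, which report signal without a matching target, were higher by 0.401 in their mean, again with no overlap for any of the 23. Their highest value on an array, used here as its floor of detection, was 5.90 to 6.34 at 0 ppm and 6.71 to 7.36 at 120 ppm. The 18 hybridisation controls, added after labelling, were higher by 0.255, with 9 of 18 free of overlap. Over all probe sets the lower quartile was higher by 0.176, the median was lower (-0.08) and the upper quartile lay at 6.32 to 6.77 against 6.95 to 6.97, a difference of -0.44. For each of these 7 measures p was 0.00794 by exact permutation (two-sided), the lowest value open to 5 arrays against 5 (Benjamini-Hochberg adjusted 0.0113 over 10 measures). The 3' minus 5' difference, a sign of RNA integrity, was -0.07 for beta-actin (exact permutation p = 0.0397, adjusted 0.0496; -0.07 to -0.05 and not under 0.05 on leaving out any of 6 of the 10 arrays), 0.0095 for Gapdh (p = 0.81, exact permutation) and -0.19 for pyruvate carboxylase (p = 0.286, exact permutation). The part of these array differences in the gene results was not tested, and since every array at 120 ppm shows them they cannot be told apart from the dose.

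**Figure D1:**
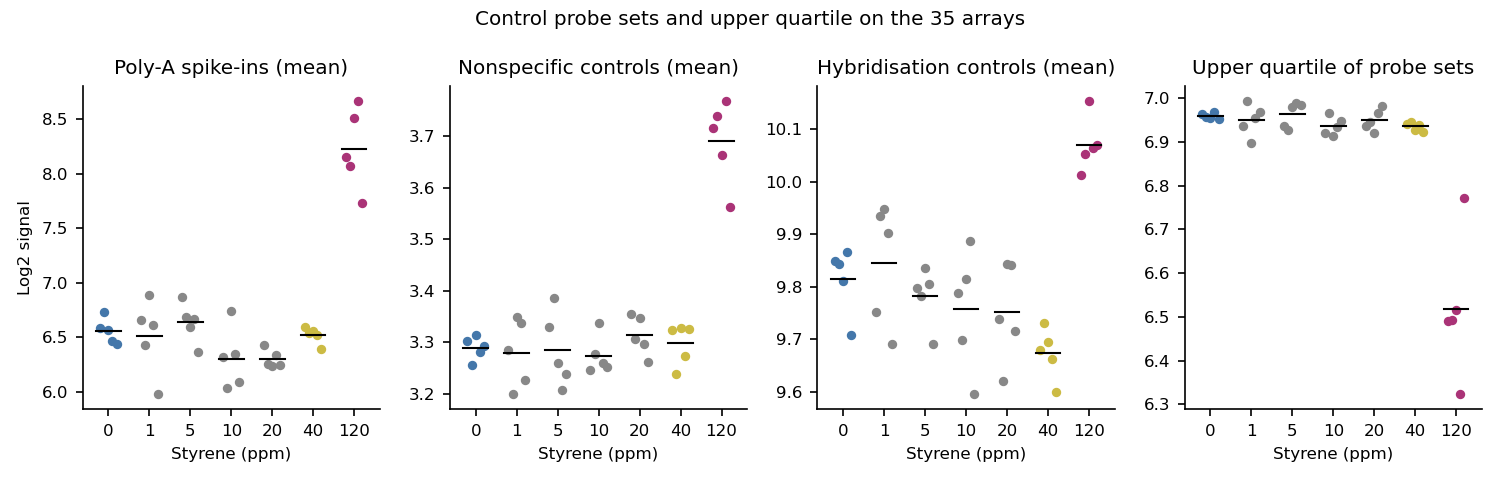
Mean log2 signal of the poly-A spike-ins, the nonspecific-hybridisation controls and the hybridisation controls, and the upper quartile of all non-control probe sets, on each of the 35 arrays (points) by styrene dose in ppm, with the mean of 5 arrays as a bar. In all 4 panels the 5 arrays at 120 ppm lie outside the range of the other 30, with poly-A means of 7.73 or more against at most 6.89 elsewhere.

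Most genes differed between 120 ppm and clean air. Of 17097 genes, 7342 rose (42.9%) and 5450 fell (31.9%) in limma at a Benjamini-Hochberg adjusted p under 0.05, so that 74.8% passed the threshold. A change of at least 2-fold was reached by 1924 risen genes (11.3%) and 3073 fallen genes (18%), and for 8490 genes (49.7%) the 5 arrays at 120 ppm did not overlap the 5 at 0 ppm. At 40 ppm, by comparison with the same 0 ppm arrays, 1315 genes (7.69%) rose and 862 (5.04%) fell. The split between directions depended on scaling: 57.4% of changed genes were higher in the values as deposited, 72.5% after each array was centred on its median, 42.2% among genes above the floor on all 5 arrays of a group, 45.1% among genes changed at least 1.5-fold, and 49.7% once the trend of an array's difference with level was taken out (5416 genes or 31.7% higher and 5491 or 32.1% lower). Centring moved the median difference of all genes from 0.16 to 0.55. With the poly-A mean of each array as a covariate, 2147 genes rose and 2342 fell. The counts below are read against 42.9% and 31.9%. Of the 7783 genes above the floor on all 5 arrays of either group, 37.4% rose and 51.2% fell. Their median difference was -0.36, against 0.16 over all genes. Lists made up mostly of such brighter genes are to be read against these 2 shares and this median. With genes in 10 classes of mean level, the median difference was 0.24 to 0.30 in the 4 dimmest classes and -0.43 to -0.17 in the 6 brighter ones.

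Array 5 of the 120 ppm group lay nearest to the controls. Over the genes risen at least 2-fold its median difference from the 0 ppm mean was 1.11, against 1.39 to 1.48 on the other 4 arrays, and over the genes fallen at least 2-fold it was -1.05 against -1.65 to -1.55. Array 5 was also nearest to clean air in its poly-A mean (7.73 against 8.07 to 8.67), floor (6.71 against 7.09 to 7.36) and upper quartile (6.77 against 6.32 to 6.52). Its hybridisation mean of 10.07 lay within the range of the other 4 (10.01 to 10.15). The part of these measures in its smaller differences was not tested. The spread within the group was larger than among controls, with a median SD per gene of 0.275 at 120 ppm and 0.147 at 0 ppm. At the doses between, this median was 0.141 to 0.186, and the fit pools the spread over all 7 doses. Its SE can therefore be too small for genes that vary more at 120 ppm. In a fit of the 10 arrays alone 6091 genes rose and 5175 fell. Without 120 ppm arrays 4 and 5, 7477 genes rose and 5413 fell. In a simulation on 17097 genes, 18% of genes set to a 1.25-fold change, 64% set to 1.5-fold, 90% set to 2-fold and 98% set to 4-fold were called. It changed 200 genes and drew each gene independently, with a single SD per gene pooled over the doses. The larger spread at 120 ppm, shifts shared by a whole array and changes in most genes were absent from it. Its rates therefore check the fit and do not describe this comparison.

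The largest rises included those of Prss22, Psapl1, Tnfrsf12a, Misp and Cldn4, and of Oasl1, Irf7 and Tk1, which are described with their lists. Prss22, a tryptase-like serine protease of airway epithelium, had signals of 3.80, 4.02, 4.09, 3.94 and 4.07 in the clean-air lungs and of 9.34, 9.19, 8.96, 9.71 and 8.42 at 120 ppm. All 5 clean-air arrays lay below their floor, so the gene rose at least 8.26-fold (log2 difference 5.14, SE 0.23, limma adjusted p = 4.52e-18). Here and below "at least" means that arrays of the dimmer group under their floor were set to it. Psapl1, a saposin-like gene, rose at least 6.14-fold (log2 4.71), and Tnfrsf12a, the receptor for the injury cytokine TWEAK, rose 10-fold from 7.32 to 7.62 up to 10.15 to 11.51 (log2 3.33, SE 0.22, adjusted p = 6.47e-15 in limma). Cldn4, a claudin of tight junctions, was at 5.74, 6.62, 6.42, 6.10 and 5.92 in clean air and at 9.59, 9.39, 8.81, 10.09 and 8.56 at 120 ppm, at least 7.97-fold higher (log2 3.13, SE 0.26, limma adjusted p = 1.13e-12). Tgm1, the transglutaminase that crosslinks the cornified envelope, rose at least 3.24-fold, Misp, a mitotic spindle and actin-binding protein, at least 5.94-fold, and Uchl1, a deubiquitinating enzyme, at least 5.29-fold. Syt8, a synaptotagmin, rose at least 3.46-fold and Arid5a, an RNA-binding protein that stabilises cytokine transcripts, at least 4.22-fold. For none of these 9 genes did the 2 groups overlap.

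The largest falls included those of Pon1, Poglut1, Rbl2, Aox3 and Slc4a5. Pon1, a lactonase that club cells express, fell from 10.81, 11.07, 10.80, 10.75 and 10.76 to 7.36, 7.31, 7.03, 7.72 and 6.87, at least 11.4-fold (log2 -3.58, SE 0.17, limma adjusted p = 8.77e-18). Aox3, an aldehyde oxidase, fell at least 6.28-fold (log2 -3.39), Gabrp, a GABA receptor subunit of airway epithelium, at least 3.66-fold (log2 -3.19), and Maob, a monoamine oxidase, at least 4.36-fold (log2 -3.15). Pigr, the receptor that carries IgA across epithelium, fell at least 1.88-fold: 4 of the 120 ppm arrays lay between 3.92 and 5.08 and array 5 at 6.41, against 7.50 to 8.65 in clean air. Poglut1, an enzyme that glucosylates Notch, was at 8.0 to 8.21 in clean air and at 4.03, 4.24, 4.37, 4.31 and 6.08 at 120 ppm, and Rbl2, a pocket protein of the retinoblastoma family, at 7.29 to 7.65 and at 3.59, 3.63, 3.64, 3.30 and 5.79. Both fell in limma (log2 -3.48 and -3.44) and lay under the floor on all 5 arrays at 120 ppm, so that the falls were at least 1.90-fold and 1.21-fold. Array 5 was again the highest of its group. Also in this set were Slc4a5, a bicarbonate cotransporter (log2 -3.21), the ubiquitin ligase Rnf125 (-3.20), Slc35f5, a transporter of the nucleotide sugar family (-3.11), the collagen lysyl hydroxylase Plod2 (-3.11), the phenylalanyl-tRNA synthetase subunit Farsb (-2.99), the coatomer subunit Copg2 (-2.98), the laminin chain Lama3 (-2.95) and C9orf72 (-2.93). Of these last 8 genes, 6 lay under the floor on all 5 arrays at 120 ppm, and the log2 differences are those of the fit and no bound. For Copg2 and C9orf72 the data set no bound at all, since their clean-air means (7.11 and 7.10) lay below the mean 120 ppm floor of 7.16.

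**Figure D2:**
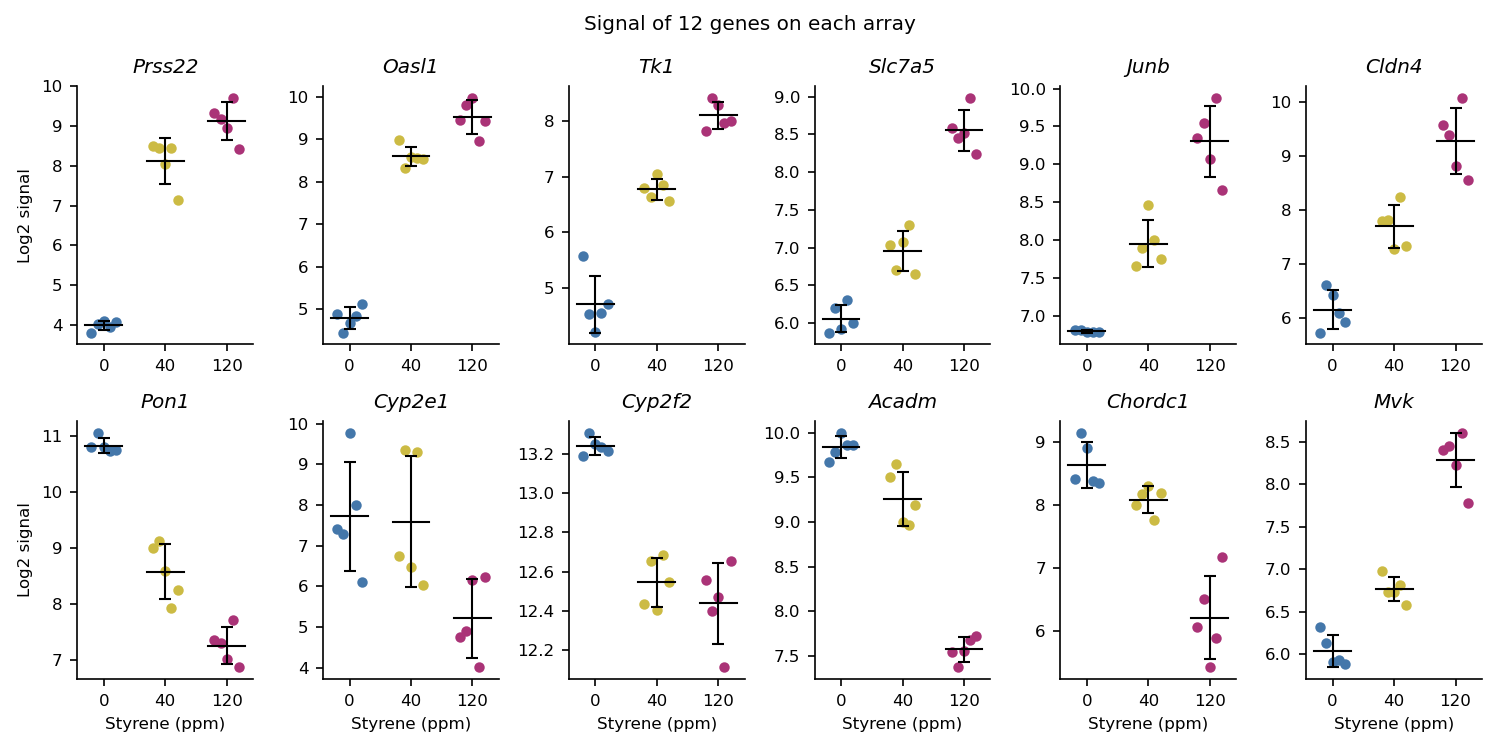
Log2 signal of 12 genes on each array at 0, 40 and 120 ppm styrene (points), with the mean (bar) and SD (whiskers, n = 5). Each panel has its own axis. For Prss22, Oasl1, Tk1, Slc7a5, Junb, Cldn4, Pon1, Cyp2f2, Acadm, Chordc1 and Mvk the 0 and 120 ppm arrays do not overlap, and for Cyp2e1 they do.

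Enzymes that oxidise and hydrolyse xenobiotics fell together. Of 25 measured members of the list, 21 fell, 16 of them at least 2-fold, and 2 rose (Aldh2 and Aldh3a1). The list median was -1.62, against 0.16 over all genes and -0.36 over those above the floor, where 23 of the 25 lay. The rise of Aldh3a1 (log2 0.66, SE 0.25, limma adjusted p = 0.0187) did not pass without clean-air array 4 (0.56, adjusted p = 0.056) or array 5 (0.54, adjusted p = 0.0645). With the level trend removed 19 fell and 2 rose. Cyp2f2, the P450 most tied to styrene oxidation in the mouse lung, fell from 13.19, 13.31, 13.25, 13.23 and 13.21 to 12.56, 12.40, 12.47, 12.11 and 12.66 (1.74-fold, log2 -0.80, SE 0.08, limma adjusted p = 1.22e-10). No array overlapped, and since these signals lie above log2 12, where an array may saturate, the true size is uncertain. At 40 ppm Cyp2f2 was already at 12.55, and 120 ppm did not differ from 40 ppm past the threshold (-0.11, SE 0.08, adjusted p = 0.239 in limma). Aldh1a7, an aldehyde dehydrogenase of club cells, fell 6.92-fold from 10.69, 11.15, 11.12, 11.24 and 11.10 to 8.02, 7.97, 8.01, 8.63 and 8.71 (log2 -2.79, SE 0.14), well clear of any clean-air array, and lay between the groups at 40 ppm with a mean of 9.88. Cyp1a1, the inducible P450 under the aryl hydrocarbon receptor, fell at least 1.39-fold, from 7.38 to 7.95 in clean air to 4.49 to 4.98, and stood at 4.72 at 40 ppm.

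Cyp2e1, the other P450 that oxidises styrene, was uneven among the controls. Its signals were 7.41, 7.30, 9.78, 8.01 and 6.12 in clean air and 4.75, 4.91, 6.16, 4.02 and 6.24 at 120 ppm, so that the groups overlapped. It fell in limma (log2 -2.51, SE 0.80, adjusted p = 0.00582), by at least 1.47-fold, since all 5 arrays at 120 ppm lay under their floor. Clean-air arrays 3 and 4 also carried hepatocyte genes: albumin (Alb) was at 11.19 and 10.47 there, at 4.38 to 6.04 on the other 3 clean-air arrays and at 3.99 to 4.62 at 120 ppm. Alb differed by -3.22 and did not pass without array 3 (-2.27, limma adjusted p = 0.0822) or array 4 (-2.45, adjusted p = 0.0704). Over all 15 hepatocyte markers the mean ran from 4.42 to 8.53 on the clean-air arrays and from 4.44 to 4.79 at 120 ppm. The median of that list was -1.26, and 2 members fell in limma, Alb and the iron carrier Trf, which the lung also expresses; 1 to 5 fell when a single clean-air array was left out. Without clean-air arrays 3 and 4, an alternative chosen after seeing the data, Cyp2e1 no longer passed the threshold (log2 -1.73, limma adjusted p = 0.087). Pon1 and Aox3 kept differences of -3.62 and -3.42, and 19 list members fell.

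Markers of club cells fell as a group, and those of the other epithelia divided. Of 14 club cell markers 11 fell (78.6%) and 0 rose, with a median of -1.05. All 14 lay above the floor, where 51.2% of all genes fell and the median was -0.36. Adjusted p-values passed for the fall of 10 with the level trend removed, where 1 rose. At 40 ppm against clean air 11 of the 14 fell and 1 rose (median -0.89). Cyp2f2, Cbr2, Aldh1a7 and Pon1 are also members of the list of xenobiotic enzymes, so the 2 lists are not independent. Besides Pon1, Gabrp and Aldh1a7, the largest fall was that of Cckar, a cholecystokinin receptor (log2 -2.54, at least 4.70-fold). Scgb1a1, the main secretory product of club cells, fell 1.26-fold in the deposited values (log2 -0.34, SE 0.05, limma adjusted p = 2.15e-07), from 13.84 to 13.96 down to 13.49 to 13.58, but was 0.06 higher with arrays centred on their median (adjusted p = 0.426 in limma). The summed level of the list, as its mean over members, was 10.61 to 11.40 in clean air and 9.24 to 10.01 at 120 ppm. In whole lung, fewer cells of a type and less RNA per cell cannot be told apart.

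Glutathione transferases and the targets of NRF2, the regulator of the antioxidant response, divided in both directions. Of 17 transferases 10 fell and 4 rose (Mgst3, Gstt2, Gstp1 and Gsto1), with a median of -0.55. Their shares were 58.8% fallen and 23.5% risen, where 51.2% and 37.4% of all genes above the floor fell and rose. Of the 17, 14 lay above it. Gsto1 did not pass without clean-air array 5 (log2 0.36, limma adjusted p = 0.0514). Gstk1, the mitochondrial and peroxisomal kappa enzyme, fell at least 5.29-fold (log2 -2.43, SE 0.18), Gsta4, which conjugates hydroxynonenal, 3.09-fold, and Mgst3, a microsomal member, rose 2.81-fold from 9.54 to 9.99 up to 11.01 to 11.49. Of 22 NRF2 targets 9 rose and 8 fell (median -0.03, or 0.36 with arrays centred), whereas at 40 ppm 12 rose and 0 fell. The 120 ppm shares, 40.9% and 36.4%, were near those of all genes (42.9% and 31.9%). Osgin1, an oxidative stress-induced growth inhibitor, rose 4.36-fold (7.17 to 7.39 against 8.74 to 9.91), the carbonyl reductase Cbr3 2.88-fold and the glutathione peroxidase Gpx2 2.72-fold.

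Genes of fatty acid oxidation and targets of its regulator PPAR-alpha fell in 60% of members, not far from the 51.2% of all genes above the floor. Of the 14 members above the floor 8 fell. Of 15 members 9 fell, 8 of them at least 2-fold, and 2 rose (Angptl4 and Acadvl), with a median of -1.01. Acadm, the medium-chain acyl-CoA dehydrogenase, fell 4.83-fold, from 9.68, 9.79, 10.00, 9.87 and 9.87 to 7.54, 7.37, 7.55, 7.68 and 7.72 (log2 -2.27, SE 0.13, limma adjusted p = 5.9e-16). The 2 groups did not overlap, and the mean at 40 ppm was 9.26. Hadhb, the beta subunit of the trifunctional protein, fell 3.08-fold, Etfdh, which passes electrons from these dehydrogenases to ubiquinone, at least 1.14-fold with all 5 of the 120 ppm arrays under the floor, and Fabp1, a fatty acid-binding protein, at least 1.5-fold. At 40 ppm 2 members of the list rose and 2 fell.

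Sterol synthesis, which had risen at 40 ppm (13 of 17 members, 0 fell), did not move in a single direction at 120 ppm. There 5 members rose (Mvk, Mvd, Dhcr7, Fdps and Fdft1) and 8 fell (median -0.37, or 0.02 with arrays centred), and against 40 ppm 12 were lower and 3 higher (median -1.24; 31.1% of all genes were lower and 39.8% higher in that comparison). The 3 with the largest rise were enzymes of the mevalonate branch and of the last step: Mvk, mevalonate kinase, went from 6.33, 6.13, 5.91, 5.94 and 5.88 to 8.41, 8.45, 8.22, 8.60 and 7.78, at least 4.50-fold higher (SE of the log2 difference of 2.26 was 0.13), Mvd rose at least 3.65-fold and Dhcr7 3.65-fold. Sc5d, which makes the C5 double bond of cholesterol, fell at least 2.11-fold (log2 -1.87), from 8.30 to 8.46 down to 6.07 to 7.42. The shares of the sterol list against clean air were 29.4% risen and 47.1% fallen. Among all genes above the floor 37.4% rose and 51.2% fell. In fatty acid synthesis (12 members, of which Slc25a1, Fasn, Elovl1 and Fads2 rose and 6 fell) the citrate carrier Slc25a1 rose 3.79-fold, and the desaturase Scd1 fell 2.61-fold, with clean-air signals above log2 12, and the elongase Elovl5 fell 2.95-fold. Fads2 did not pass without clean-air array 5 or on leaving out any of 120 ppm arrays 1, 2 and 5 (log2 0.38 to 0.40), nor in a fit of the 10 arrays alone (0.47, limma adjusted p = 0.0845).

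Chaperones of the cytosol and of the endoplasmic reticulum (ER) fell in 60% of members each, not far from the 51.2% of all genes above the floor. All 15 cytosolic and 19 of 20 ER members lay above the floor on all 5 arrays of either group. Of 15 cytosolic heat shock chaperones 9 fell, 8 at least 2-fold, and 3 rose (Hspa1b, Hspb8 and Bag3), with a median of -1.01. Chordc1, a co-chaperone of HSP90, fell at least 2.60-fold, from 8.42, 9.14, 8.90, 8.38 and 8.34 to 6.06, 6.51, 5.42, 5.89 and 7.17, Hsph1, an HSP110 nucleotide exchange factor, 4.62-fold, and Dnaja1, an HSP40, 3.19-fold. Hspa1b, the stress-inducible HSP70, was uneven in clean air (11.01, 11.56, 10.81, 8.88 and 8.21) and overlapped the 120 ppm arrays (12.00, 11.71, 11.30, 11.97 and 11.19). Its rise (log2 1.54, SE 0.52, limma adjusted p = 0.00851) did not pass without clean-air array 5 (log2 1.07, adjusted p = 0.0544 in limma). Of 20 ER chaperones 12 fell and 4 rose (Syvn1, Sdf2l1, Hyou1 and Sec61b), with a median of -0.41 (-0.02 with arrays centred). Hspa5, the main HSP70 of the ER, fell 3.23-fold from 10.57 to 11.35 down to 9.12 to 9.80, and the lectin chaperone Canx fell 3.47-fold.

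The integrated stress response, in which phosphorylation of eIF2-alpha favours translation of ATF4 and transcription of its targets, rose in larger part. Of 22 members 16 rose and 5 fell (Vldlr, Nupr1, Ddit3, Cebpg and Asns), with a median of 0.86, or 0.33 with the poly-A mean as a covariate. Asns did not pass with arrays centred (log2 -0.22, limma adjusted p = 0.079). At 40 ppm 7 rose and 2 fell, and against 40 ppm 13 were higher and 7 lower. Slc7a5, the light chain of the large neutral amino acid transporter, was at 5.87, 6.19, 5.93, 6.30 and 6.00 in clean air and at 8.58, 8.45, 8.52, 8.99 and 8.24 at 120 ppm, at least 5.14-fold higher (log2 2.5, SE 0.14, limma adjusted p = 1.52e-16). Trib3, a pseudokinase target of ATF4, rose at least 2.27-fold, with array 5 at 6.40 below the other 4 (7.32 to 7.63). Atf3, itself a transcription factor of this response, rose at least 3.62-fold, but its mean of 7.94 was not above that at 40 ppm (8.08). Chac1, an enzyme that degrades glutathione, rose 3.65-fold, from 6.25 to 6.53 up to 7.64 to 8.54. Vldlr, a lipoprotein receptor, fell at least 1.06-fold (log2 -2.35), with all 120 ppm arrays under the floor.

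The bases upstream of Atf3 and Chac1 are shown because both genes rose and hold the element bound by C/EBP-ATF dimers. The element was searched as TGATGNAA on both strands in the 250 bases before each RefSeq transcription start (GRCm38.p6), and capitals mark the matches. Atf3 lies on the - strand (chr1:191183334-191183583) and Chac1 on the + strand (chr2:119350992-119351241), and the match begins 110 bases before the start of Atf3 and 193 before that of Chac1.
Atf3: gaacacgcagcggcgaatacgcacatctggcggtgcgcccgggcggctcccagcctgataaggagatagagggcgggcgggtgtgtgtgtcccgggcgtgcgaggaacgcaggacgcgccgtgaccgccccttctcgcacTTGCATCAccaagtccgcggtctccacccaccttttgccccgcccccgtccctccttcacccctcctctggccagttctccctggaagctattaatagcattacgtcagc
Chac1: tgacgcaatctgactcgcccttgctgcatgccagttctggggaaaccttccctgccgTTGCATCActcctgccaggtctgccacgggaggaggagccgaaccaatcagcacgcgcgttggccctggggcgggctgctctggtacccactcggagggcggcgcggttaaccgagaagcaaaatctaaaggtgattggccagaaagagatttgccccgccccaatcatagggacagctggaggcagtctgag
Of 13605 genes with such a sequence, 2.86% held a match. Among 21 list members with a sequence 5 held one. Of these 5, 2 rose, while Asns, Nupr1 and Vldlr fell, and 13 of the 16 without a match rose. A match is a description of the letters in this window and not a site of binding.

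Immediate early genes, the transcription factors and regulators that answer growth and stress signals within the hour, were higher on the morning after exposure. Of 19 members 13 rose and 2 fell (Klf6 and Ier5, the latter not with arrays centred, log2 -0.09), with a median of 0.78. Junb was at 6.81, 6.81, 6.79, 6.78 and 6.78 in clean air and at 9.35, 9.55, 9.06, 9.88 and 8.66 at 120 ppm, 5.69-fold higher (log2 2.51, SE 0.18, limma adjusted p = 5.24e-14), and at 7.95 at 40 ppm. Maff, a small MAF protein, rose 3.79-fold, Egr1 3.54-fold and Ier2 3.17-fold. Egr1 did not differ from 40 ppm past the threshold (0.03, limma adjusted p = 0.891), while Junb was higher than at 40 ppm by 1.35 (limma adjusted p = 5.51e-08).

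Acute phase genes, induced in lung epithelium by cytokines of the interleukin-6 family, rose in 10 of 17 and fell in 4 (Pigr, Cp, Steap4 and Hp, the last not with arrays centred, log2 -0.06), with a median of 0.66. Lrg1, a leucine-rich glycoprotein, rose 6.93-fold, from 9.29, 9.57, 9.58, 9.06 and 9.51 to 11.98, 12.09, 12.41, 12.11 and 12.39 (log2 2.79, SE 0.16, limma adjusted p = 5.9e-16), and the 120 ppm signals lie where an array may saturate. Socs3, the feedback inhibitor of this signalling, rose 6.49-fold, from 6.95 to 7.48 up to 9.64 to 10.09. Saa3, serum amyloid A, stood at 8.38 to 8.56 at 120 ppm, at 4.90 to 5.73 on 4 clean-air arrays and at 8.79 on clean-air array 1, so that the groups overlapped. It rose at least 3.70-fold (log2 2.38, SE 0.42). Cytokines and chemokines were mostly dim: 4 of 23 lay above the floor on all arrays of a group, 11 rose and 4 fell (Osmr, Il1b, Csf2 and Il1rn), and the median was 0.31. The share risen, 47.8%, was near the 42.9% of all genes, and 17.4% fell against 31.9%. Il1b did not pass on leaving out any of clean-air arrays 1, 3, 4 and 5 or of 120 ppm arrays 1, 3, 4 and 5 (log2 -0.78 to -0.58). With arrays centred Il1b, Csf2 (-0.34) and Il1rn (-0.14) did not pass, nor did Il1b (-0.47) and Csf2 (-0.45) under quantile normalization. Il4ra, the interleukin-4 receptor chain, rose 3.25-fold from 6.95 to 7.32 up to 8.48 to 8.91.

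Interferon-response genes, the antiviral programme under the factors IRF7 and ISGF3, rose against clean air but in larger part stood lower than at 40 ppm. Of 16 members 13 rose and 1 fell (Ddx58), with a median of 1.23. At 40 ppm all 16 rose against the same clean-air arrays (median 2.47), and in the direct comparison of 120 with 40 ppm 1 was higher, Oasl1, and 10 were lower (median -0.92). Oasl1, an oligoadenylate synthetase-like protein, was at 4.88, 4.45, 4.68, 4.84 and 5.13 in clean air and at 9.46, 9.82, 9.98, 8.95 and 9.42 at 120 ppm, at least 10.9-fold higher (log2 4.73, SE 0.23, limma adjusted p = 1.39e-17), and 0.93 above 40 ppm (limma adjusted p = 0.000584). Irf7 rose at least 11.5-fold, from 5.81 to 6.5 up to 9.37 to 10.16. Ifit1, an RNA-binding effector, rose at least 3.69-fold to 7.99 to 8.81, but averaged 9.82 at 40 ppm, so that 120 minus 40 ppm was -1.44 (SE 0.31, limma adjusted p = 0.000105). Cxcl10, a chemokine that draws T cells, rose at least 1.94-fold and was -1.06 against 40 ppm (limma adjusted p = 0.0158). Other interferon-induced genes that rose were Apol9a (at least 6.05-fold), the helicase Dhx58 (at least 6.79-fold), Oas1g (8.07-fold) and the nucleic acid sensor Zbp1 (at least 4.13-fold).

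The sequences before Ifit1 and Cxcl10 are shown as genes that rose and then stood lower at 120 than at 40 ppm, and that hold the interferon-stimulated response element, searched as GAAANN followed directly by GAAA on both strands in the same 250 bases (RefSeq, GRCm38.p6). Ifit1 lies on the + strand (chr19:34640639-34640888) with matches that begin 104 and 85 bases before its start. Cxcl10 lies on the - strand (chr5:92348890-92349139) with a match 213 bases before its start. Capitals mark the matches.
Ifit1: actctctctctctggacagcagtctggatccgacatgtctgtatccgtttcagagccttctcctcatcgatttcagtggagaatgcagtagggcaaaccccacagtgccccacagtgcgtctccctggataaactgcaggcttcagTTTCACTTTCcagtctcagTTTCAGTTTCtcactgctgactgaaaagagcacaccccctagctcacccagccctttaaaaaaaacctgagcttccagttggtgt
Cxcl10: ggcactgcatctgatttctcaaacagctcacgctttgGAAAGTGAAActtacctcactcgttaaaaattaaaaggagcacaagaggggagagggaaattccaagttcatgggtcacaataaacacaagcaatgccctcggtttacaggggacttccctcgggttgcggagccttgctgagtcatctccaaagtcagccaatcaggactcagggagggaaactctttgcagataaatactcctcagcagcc
The element was present before 3.09% of 13605 genes. It was found before 5 of 12 list members with a sequence, of which 3 rose, and 6 of the 7 without it rose.

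Genes of antigen presentation rose in larger part in the MHC class I branch. Of 12 genes of MHC class I and the immunoproteasome 8 rose and 2 fell (Erap1 and Psme1, the latter 0.10 higher with arrays centred; Erap1 did not pass under quantile normalization, log2 -0.42), with a median of 0.50. The catalytic subunits of the immunoproteasome rose together: Psmb8 2.52-fold (9.02 to 9.53 against 10.32 to 10.88), Psmb9 2.55-fold (8.51 to 8.99 against 9.63 to 10.39) and Psmb10 2.31-fold. Of 8 MHC class II genes 4 rose (H2-Oa, H2-DMb1, H2-DMa and H2-Ab1) and 1 fell (H2-Aa, which did not pass with arrays centred, log2 -0.05, or with the level trend removed, -0.21). At 40 ppm 0 of these 8 had risen and 4 had fallen, and 7 were higher at 120 than at 40 ppm. H2-DMb1, a chain of the peptide exchange factor DM, rose 2.36-fold, from 7.09 to 7.51 up to 8.13 to 8.74.

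Genes of DNA replication divided, and genes of mitosis rose or did not pass. Of 26 replication genes 14 rose (53.8%, against 42.9% of all genes), 10 at least 2-fold, and 7 fell (26.9% against 31.9%), with a median of 0.38. At 40 ppm 19 rose and 0 fell, and against 40 ppm 7 were higher and 13 lower. Tk1, thymidine kinase of S phase, was at 5.57, 4.54, 4.22, 4.56 and 4.72 in clean air and at 7.81, 8.41, 8.28, 7.95 and 8.0 at 120 ppm, at least 4.04-fold higher (log2 3.37, SE 0.20, limma adjusted p = 6.92e-16). Uhrf1, which recruits maintenance DNA methylation, rose at least 3.27-fold, Mcm5, a subunit of the replicative helicase, at least 2.96-fold and Cdt1, a loading factor for that helicase, 4.64-fold. Mcm4, another subunit of the same helicase, chosen after its values were seen, fell in limma (log2 -1.47, SE 0.20), although its clean-air signals (6.79 to 7.26) lay within the range of the floor on the 120 ppm arrays. Of 28 mitosis genes 15 rose and 0 fell, with a median of 0.49, and 1 of the 28 lay above the floor on all arrays of a group, so these rises are of dim genes. In the 3 dimmest of the 10 classes of level, 927 of 1710, 959 of 1710 and 954 of 1709 genes of any kind rose and 12, 26 and 74 fell. With the level trend removed 13 mitosis genes rose and 2 fell. Cdc20, an activator of the anaphase-promoting complex, rose at least 2.60-fold, from 4.70 to 6.05 up to 7.00 to 7.84, and Cdk1 at least 1.48-fold with groups that overlapped.

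The sequences before Mcm5 and Uhrf1 are shown because both rose and hold an E2F site, searched as TTTGGCGC or TTTCGCGC on both strands (RefSeq, GRCm38.p6, 250 bases before the start). Mcm5 lies at chr8:75109259-75109508 on the + strand, where matches to both forms overlap, beginning 153 and 149 bases before the start. Uhrf1 lies at chr17:56304063-56304312 on the + strand, with a match 185 bases before the start used here, 1 of 2 that are listed. Capitals mark the matches.
Mcm5: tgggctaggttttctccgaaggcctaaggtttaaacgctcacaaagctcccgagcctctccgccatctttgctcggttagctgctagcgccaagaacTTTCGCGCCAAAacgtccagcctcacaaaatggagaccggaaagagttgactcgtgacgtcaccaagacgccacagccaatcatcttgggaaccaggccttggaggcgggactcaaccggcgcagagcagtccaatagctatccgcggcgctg
Uhrf1: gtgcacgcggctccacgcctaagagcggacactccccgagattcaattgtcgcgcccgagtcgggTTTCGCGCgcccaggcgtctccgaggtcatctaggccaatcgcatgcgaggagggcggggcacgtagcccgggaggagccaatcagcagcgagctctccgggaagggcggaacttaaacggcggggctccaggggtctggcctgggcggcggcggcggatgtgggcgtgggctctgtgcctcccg
A site was found before 1.17% of 13605 genes and before 5 of 22 replication genes with a sequence. Of these 5, 2 rose, and of the other 17, 11 rose.

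Targets of p53 also divided, with 7 of 21 risen and 11 fallen (median -0.58, but 0.14 with the poly-A mean as a covariate). These shares, 33.3% and 52.4%, were near the 37.4% and 51.2% of all genes above the floor, where 14 of the 21 lay. The kinase Plk3 rose at least 3.24-fold (5.23 to 5.71 against 7.14 to 8.45) and Phlda3, an inhibitor of AKT, 4.20-fold (7.93 to 8.36 against 9.96 to 10.57). Sesn1, a stress-induced regulator of TORC1, fell at least 2.74-fold and the death receptor Fas at least 2.12-fold. The cell cycle inhibitor Cdkn1a and the p53 ubiquitin ligase Mdm2, chosen after their values were seen, differed by 1.18 (SE 0.23, 2.27-fold) and -1.59 (SE 0.13). Mdm2 lay under the floor on all 5 arrays at 120 ppm, so its fall was at least 1.24-fold.

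Keratins and other genes of simple and squamous epithelium rose in 11 of 19 and fell in 4 (Itgb6, Klf5, Dsp and Sox4), with a median of 0.58. For Sox4, whose probe set differed by -0.91, the other probe sets above the floor differed by -0.05 and 0.01, and it did not pass as a mean over probe sets (-0.30). Besides Cldn4, Sprr1a, a precursor of the cornified envelope, rose at least 2.40-fold and Sfn, the epithelial 14-3-3 protein, at least 3.12-fold. Sprr1a averaged 8.80 at 10 ppm and 7.34 at 120 ppm, and Sfn 7.27 and 7.95. At 40 ppm 7 of the 19 rose and 0 fell, and 9 were higher and 4 lower at 120 than at 40 ppm. The keratins of simple epithelium Krt19 and Krt8, chosen after their values were seen, rose 2.93-fold (11.04 to 11.15 against 12.46 to 12.95) and 2.48-fold (10.71 to 11.07 against 12.06 to 12.31), above log2 12 at 120 ppm. Itgb6, the integrin chain that activates TGF-beta on epithelium, fell at least 1.29-fold. Of 18 genes of the provisional matrix and injury 7 rose and 6 fell (38.9% and 33.3%, median 0.18), near the 42.9% and 31.9% of all genes. Timp1, the inhibitor of metalloproteinases, rose 5.78-fold, from 8.95, 6.88, 7.45, 6.97 and 7.22 to 10.28, 10.13, 10.03, 10.12 and 9.57, and the urokinase receptor Plaur rose 3.41-fold, while the metalloproteinase Mmp3 fell at least 1.93-fold. Timp1 averaged 10.25 at 40 ppm and 10.03 at 120 ppm, and Plaur 8.96 and 9.90. In this list 9 rose and 0 fell at 40 ppm, and 5 were higher and 7 lower at 120 than at 40 ppm. Of 18 collagens 8 rose and 7 fell (median 0.21): Col18a1, the source of endostatin, rose at least 3.84-fold and Col1a1 2.85-fold, and Col14a1 fell at least 1.16-fold. The collagen shares, 44.4% risen and 38.9% fallen, were also not far from those of all genes. At 40 ppm 9 collagens rose and 0 fell, and 6 were higher and 9 lower at 120 than at 40 ppm. The growth factor Hbegf rose 2.90-fold (8.50 to 8.90 against 9.96 to 10.82), in a list of 13 EGF receptor ligands and feedback genes of which 5 rose (Hbegf, Spry4, Phlda1, Epgn and Spry2) and 3 fell (Tgfa, Errfi1 and Btc), Errfi1 not with arrays centred (log2 -0.44). In that list 38.5% rose and 23.1% fell, both shares below those of all genes. Hbegf averaged 10.44 at 40 ppm and 10.27 at 120 ppm, and 2 members of the list were higher and 5 lower at 120 than at 40 ppm.

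**Figure D3:**
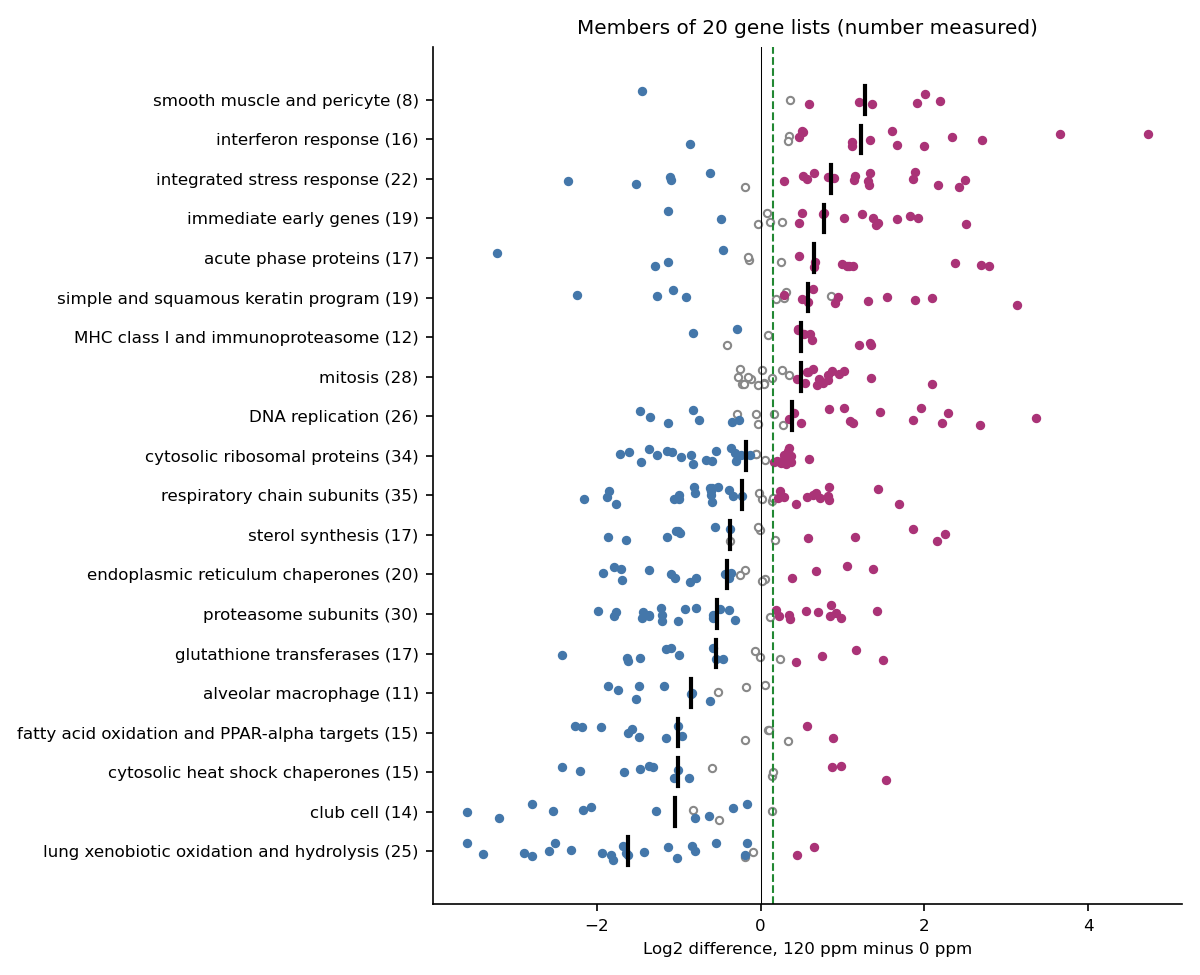
Log2 difference between 120 and 0 ppm of each measured member of 20 gene lists (points; number measured in brackets), filled where limma's adjusted p was under 0.05 and open where it was not, with the median of each list as a bar and the median of all 17097 genes (0.16) as a dashed line. The lists run from a median of -1.62 for lung xenobiotic oxidation and hydrolysis to 1.28 for smooth muscle and pericyte markers, and most lists hold members that rose and members that fell. The median over genes above the floor, not drawn, was -0.36.

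Subunits of single complexes differed in direction at 120 ppm, at shares near those of all genes above the floor (37.4% risen, 51.2% fallen). All measured subunits lay above the floor on all 5 arrays of either group, and the median over all such genes was -0.36. In the proteasome 36.7% rose and 60% fell, in the respiratory chain 37.1% and 51.4%, and in the ribosome 38.2% and 52.9%. Of 30 proteasome subunits 11 rose and 18 fell (median -0.53), from 1.43 for the lid subunit Psmd3 to -1.99 for the core subunit Psma4. Psma4 fell from 10.38, 10.39, 10.46, 10.49 and 10.42 to 8.15, 8.36, 8.40, 8.50 and 8.77, and Psmd3 rose from 8.63, 8.39, 8.53, 8.37 and 8.23 to 9.85, 10.00, 9.75, 10.04 and 9.64. Neither pair of groups overlapped (limma adjusted p = 2.12e-17 and 9.06e-15). Of 35 respiratory chain subunits 13 rose and 18 fell (median -0.23): the 2 core proteins of complex III moved in opposite directions, Uqcrc1 up 3.23-fold (9.37 to 9.80 against 11.04 to 11.40) and Uqcrc2 down 4.44-fold (10.70 to 10.81 against 8.24 to 9.07). Of 34 cytosolic ribosomal proteins 13 rose and 18 fell (median -0.18, but 0.21 with arrays centred and 0.03 with the level trend removed). The large-subunit proteins Rpl4 and Rpl7 fell 3.29-fold and 3.04-fold, and Rpl8 rose 1.51-fold, all above log2 12 in clean air. For some subunits direction depended on the probe set. Rpl15 was 0.34 higher in the probe set used and differed by -2.34 in its other probe set above the floor. For the proteasome subunit Psmd11 these values were 0.22 and -0.14. At 40 ppm the same subunits ranged from -0.35 to 0.41 in the proteasome, from -0.30 to 0.44 in the respiratory chain and from -0.43 to 0.23 in the ribosome.

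**Figure D4:**
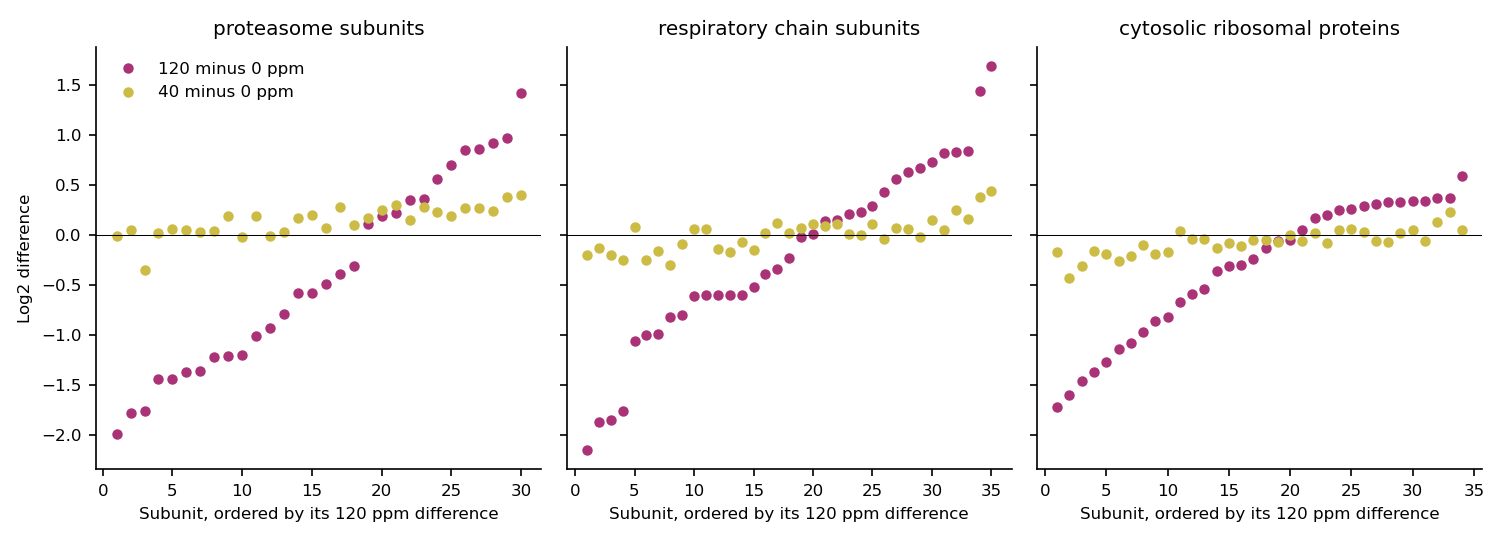
Log2 difference from 0 ppm of each measured subunit of the proteasome (30), the respiratory chain (35) and the cytosolic ribosome (34) at 120 ppm and at 40 ppm, with subunits ordered from left to right by their 120 ppm difference. At 120 ppm the subunits spread from -2.15 to 1.69, and at 40 ppm from -0.43 to 0.44.

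Direction went with the length of the gene. Of 7783 genes above the floor on all 5 arrays of either group, 7777 had a genomic span in RefSeq, and they were divided into 5 equal classes with median spans of 4.12, 11.3, 22.2, 42.5 and 110 kb. The median difference went down from class to class, from 0.49 and 0.29 in the 2 shortest through -0.38 and -0.83 to -1.03 in the longest. In the shortest class 59.6% of genes rose and 26.7% fell, and in the longest 15% rose and 74.9% fell, where 37.4% and 51.2% of all 7783 rose and fell. Spearman's rho between span and difference over these genes was -0.391 (-0.401 without 120 ppm arrays 4 and 5, and -0.411 to -0.378 within 5 classes of level), given as a description, since genes on the same arrays are not independent. Each of the 5 arrays at 120 ppm showed the order, with medians from 0.37 to 0.58 in the shortest class and from -1.18 to -0.65 in the longest. With the poly-A mean of each array as a covariate rho was -0.243, and the medians of the shortest and longest classes were 0.21 and -0.45. At 40 ppm the same classes had medians of 0.06, 0.05, 0.01, -0.04 and -0.12 (rho -0.227). In the complexes the subunits that rose had median spans of 8.39 kb in the proteasome and 6.27 kb in the respiratory chain, and those that fell 15.8 and 12.3 kb. The xenobiotic enzymes that fell had a median span of 28.5 kb, the club cell markers that fell 9.22 kb, and the immediate early genes that rose 3.75 kb. The part of gene length in the results on single genes was not tested.

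**Figure D5:**
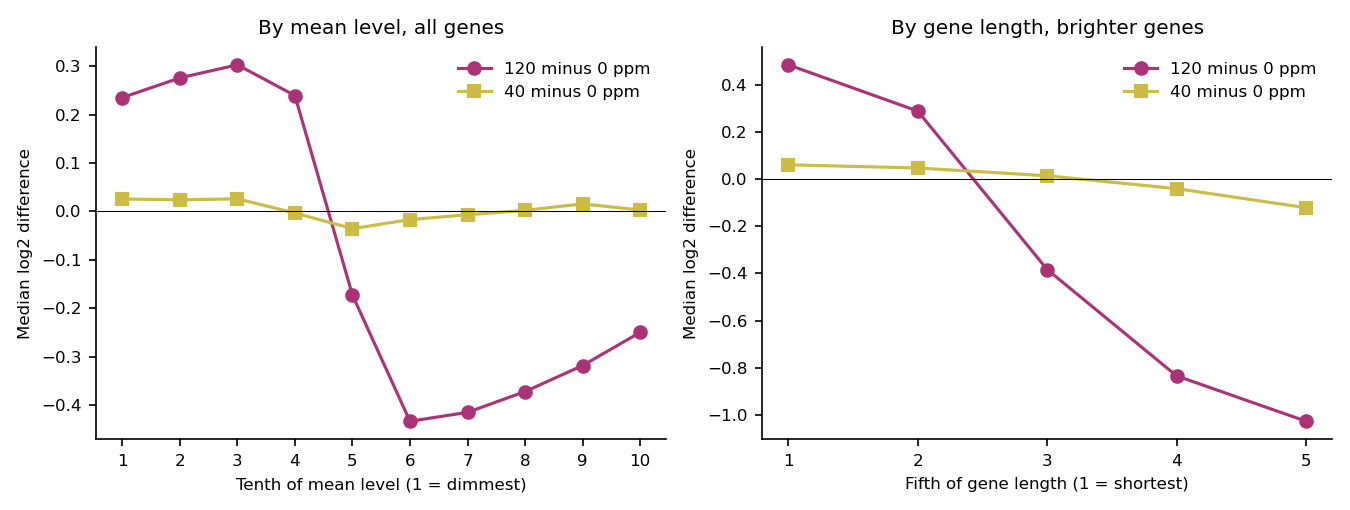
Median log2 difference from 0 ppm at 120 ppm and at 40 ppm, on the left by 10 classes of mean signal over all 17097 genes and on the right by 5 classes of gene length over 7777 genes above the floor. At 120 ppm the medians run from 0.24 to 0.30 in the 4 dimmest classes and below 0 in the brighter ones, and from 0.49 in the shortest genes to -1.03 in the longest.

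Alveolar macrophage markers fell in 8 of 11 (72.7%) with 0 risen (median -0.85, and 5 fell with the level trend removed or with arrays centred). All 11 lay above the floor, where 51.2% of all genes fell. Plet1 fell 3.64-fold, from 10.00 to 10.44 down to 8.01 to 8.95. The master regulator Pparg and the lectin Siglecf fell in limma with all 120 ppm arrays under the floor (log2 -1.74 and -1.52). Their clean-air means of 6.45 and 7.10 lay below the mean 120 ppm floor of 7.16, so the data set no bound for these 2 falls. The complement genes of interstitial macrophages C1qa, C1qb and C1qc rose 2.56-fold, 3.23-fold and 2.64-fold, in a list of 11 in which 4 rose (Cd14 being the other) and 5 fell (F13a1, Ms4a7, Plac8, Ccr2 and Treml4, the last not without clean-air array 1, log2 -0.39, or with arrays centred, -0.17). Ccr2 did not pass with arrays centred (-0.38) or under quantile normalization (-0.46). Of 8 smooth muscle and pericyte markers 6 rose and 1, Myh11, fell, with a median of 1.28. Cnn1, calponin, rose 4.57-fold (6.57 to 7.83 against 9.18 to 9.70), the intermediate filament gene Des 3.77-fold and Actg2, smooth muscle actin, at least 4.03-fold. Cnn1 and Des averaged 7.19 and 7.55 in clean air and 8.27 and 8.17 at 1 ppm. At 120 ppm they averaged 9.38 and 9.47. Actg2 averaged 6.66 in clean air, 8.75 at 10 ppm and 8.68 at 120 ppm. Notch3, of the same list, averaged 8.36, 8.26 and 9.72 at these doses. At 40 ppm 4 of the 8 rose and 0 fell, and 4 were higher and 1 lower at 120 than at 40 ppm. The part of the clean-air level in these rises was not tested. Of 16 endothelial markers 7 fell and 5 rose (Sox17, Cldn5, Tie1, Vwf and Plvap), from -2.18 for the angiopoietin receptor Tek and -2.15 for Pecam1 to 1.38 for Sox17. All 16 lay above the floor, and 43.8% fell and 31.2% rose. Of all genes above it 51.2% fell and 37.4% rose. Pecam1 fell 4.44-fold, from 10.39 to 10.57 down to 8.02 to 8.95. Of 12 fibroblast markers 6 fell (50%, near the share above the floor) and 3 rose (Col13a1, Gli1 and Tcf21), with Npnt, nephronectin, 5.20-fold and Dcn, decorin, 4.99-fold lower. Gli1 (log2 0.19 to 0.37 on leaving out any of clean-air arrays 1 and 2 or 120 ppm arrays 3 and 5) and Tcf21 (0.24 to 0.27 on leaving out any of clean-air arrays 2, 4 and 5 or 120 ppm arrays 1, 2 and 3) then did not pass.

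Among epithelial markers, 8 of 12 ciliated cell genes fell and 3 rose (Foxj1, Tppp3 and Spag6), with a median of -0.89. Spag6 did not pass on leaving out any of clean-air arrays 2 and 3 or 120 ppm arrays 3 and 4 (log2 0.13 to 0.25). Cdhr3, a cadherin of ciliated cells, fell at least 1.26-fold, while Foxj1, the regulator of motile cilia, rose 2.94-fold (7.31 to 8.71 against 9.11 to 9.78). Of 11 markers of alveolar type 1 cells 7 fell and 4 rose (Igfbp2, Aqp5, Spock2 and Ager). All 11 lay above the floor, and 63.6% fell and 36.4% rose, against 51.2% and 37.4% of all genes above it. Clic5 fell 3.22-fold and the claudin Cldn18 2.59-fold, and the water channel Aqp5 rose 2.17-fold, from 11.17 to 11.25 up to 12.25 to 12.45. Of 10 alveolar type 2 markers 3 fell (Cxcl15, Napsa and Sftpa1) and 1 rose (Sftpd), with differences of -0.71 for Cxcl15 and 0.19 for Sftpd. Their median was -0.03, but 0.37 with arrays centred and 0.19 with the level trend removed, where 4 rose and 1 fell. With arrays centred, Napsa was 0.02 and Sftpa1 0.22 higher, Sftpa1 was 0.03 higher with the level trend removed, and without 120 ppm array 4 Napsa did not pass (log2 -0.24). In a fit of the 10 arrays alone Cxcl15 remained as the fall, and neither Sftpd nor the type 1 marker Ager (0.18) passed. Sftpc, the surfactant gene, differed by 0.01 (SE 0.05, limma adjusted p = 0.805). Of 10 neutrophil markers 1 rose (Camp) and 1 fell (Mmp8, which did not pass without clean-air array 5, log2 -0.44, or with arrays centred, -0.28), and their mean level was 5.12 to 6.21 in clean air and 5.38 to 5.66 at 120 ppm.

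Set directly against 40 ppm, 6798 genes were higher (39.8%) and 5318 lower (31.1%) at 120 ppm. Poglut1, Rbl2, Rnf125, Slc35f5 and Copg2 had fitted differences from 40 ppm of -3.05 to -2.86. At 40 ppm against clean air these 5 did not pass the threshold, with limma adjusted p-values from 0.153 to 0.647. Tmem41b and Tmem168, membrane proteins of the secretory pathway, and the peroxisomal protease Lonp2 had fitted differences of -2.86, -2.73 and -2.70. All 8 genes lay under the floor at 120 ppm, Slc35f5 on 4 arrays and the others on all 5, so these differences are no bound and give no order. The falls from 40 ppm were at least 2.27-fold for Slc35f5, 2.10-fold for Tmem168, 2.04-fold for Tmem41b, 1.41-fold for Poglut1, 1.36-fold for Lonp2 and 1.15-fold for Rnf125, and the data set no bound for Rbl2 and Copg2. On the other side stood Gp1bb, a platelet glycoprotein chain (2.02 above 40 ppm, SE 0.21), Krtap17-1, a keratin-associated protein (1.88), and Armc6, an armadillo repeat protein (1.85). Pon1 (-1.33), Aldh1a7 (-1.61), Acadm (-1.69) and Hspa5 (-1.65) were also lower than at 40 ppm, and Prss22 (1.01), Cldn4 (1.59), Tk1 (1.32) and Slc7a5 (1.60) higher, each past the threshold in limma.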

How the data were processed

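Whole-lung RNA on 35 Affymetrix arrays, 5 per dose, was analysed from the values the authors deposited, which are log2 signals after RMA; RMA and Partek are named in the submitters' processing notes, and the sources used here give no version or setting of either. Of 45141 probe sets, 104 are controls, 28898 are listed with a single gene, 551 with several and 15588 with none; 7180 of the 17097 genes have over 1 probe set, and the brightest over the 35 arrays stood for each. One linear model over the 7 doses was fitted with limma 3.58.1 (R 4.3.3; 28 residual and 4.617 prior degrees of freedom), with Benjamini-Hochberg adjustment over all genes and a threshold of 0.05; figures used matplotlib 3.10.9 and numpy 2.4.6 under Python 3.11.15. The floor of an array is its highest nonspecific-hybridisation control, and the level trend of an array is a loess curve (span 0.4) of its difference from the clean-air mean on level. In the simulated data 8 of 16897 unchanged genes were called, a rate that does not describe the 120 ppm arrays, whose spread was larger.

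The genes, members and lists were chosen with earlier results of these data known. Named are the 15 largest differences each way with the brighter group above the floor, up to 4 called members with the largest difference per list, the 8 largest each way against 40 ppm, and Cyp2f2, Cyp2e1 and Scgb1a1; other genes, given to complete a small count or as named in the text, were chosen after their values were seen. Of 882 symbols written in 50 lists 792 were measured. For the list members Edem1 (0.02 and -1.70), Pes1 (0.07 and -1.69) and Vegfa (-0.40 and 0.57), the probe set used and another above the floor differed in sign. The number of arrays limits the precision. Gene spans and 250 upstream bases are from RefSeq (GRCm38.p6). Alternatives tried are other scalings, filters, variance models, array weights, a poly-A covariate, the replicate number as a block, and fits without single arrays.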

Additional observations from a re-analysis of the deposited data

Results flagged for a closer look

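In each group of 5 arrays, the highest or lowest array was set against the others by Dixon's test for every gene and list given with values. Of 472 such groups 39 had an array whose gap to its nearest neighbour passed the 95% limit; chance alone gives about 1 in 20. Values are log2 signals. Standing apart on clean-air array 1 were Aldh1a7 at 10.69 (others 11.10 to 11.24), Camp at 5.04 (others 4.04 to 4.19) and Errfi1 at 11.73 (others 11.10 to 11.19). The same array also had Il4ra at 7.32 (others 6.95 to 7.04), Psmb10 at 10.15 (others 9.65 to 9.76) and Saa3 at 8.79 (others 4.90 to 5.73). A further value of this kind on clean-air array 1 was Timp1 at 8.95 (others 6.88 to 7.45). The mean over the DNA replication list was 6.11 on clean-air array 1 (others 5.79 to 5.87). Standing apart on clean-air array 2 were Col1a1 at 6.87 (others 7.50 to 7.66) and Pon1 at 11.07 (others 10.75 to 10.81). Standing apart on clean-air array 3 were Ager at 13.41 (others 13.47 to 13.49) and Cbr3 at 9.24 (others 8.94 to 9.01). Standing apart on clean-air array 5 were Fdft1 at 8.34 (others 8.73 to 8.81) and Nupr1 at 10.68 (others 10.82 to 10.84). Standing apart on 120 ppm array 3 was Dnaja1 at 7.85 (others 8.22 to 8.37). Standing apart on 120 ppm array 4 were Acadvl at 9.54 (others 9.77 to 9.83), Fads2 at 7.03 (others 7.91 to 8.13) and Fdps at 10.04 (others 10.52 to 10.69). The same array also had H2-DMb1 at 8.13 (others 8.60 to 8.74), Scgb1a1 at 13.49 (others 13.56 to 13.58) and Sdf2l1 at 8.88 (others 9.28 to 9.43). Standing apart on 120 ppm array 5 were Alb at 4.62 (others 3.99 to 4.13), Angptl4 at 10.12 (others 10.61 to 10.66) and Aox3 at 7.39 (others 6.22 to 6.56). The same array also had Asns at 8.63 (others 7.79 to 8.0), Chac1 at 7.64 (others 8.30 to 8.54) and Clic5 at 9.63 (others 8.86 to 9.07). Further values of this kind on 120 ppm array 5 were Hspa5 at 9.80 (others 9.12 to 9.30), Hyou1 at 10.34 (others 10.13 to 10.16) and Lonp2 at 6.14 (others 4.43 to 4.83). Also apart there were Poglut1 at 6.08 (others 4.03 to 4.37), Rbl2 at 5.79 (others 3.31 to 3.64) and Rpl4 at 10.93 (others 10.27 to 10.35). Set apart too were Sftpd at 12.95 (others 12.68 to 12.74), Syvn1 at 9.55 (others 9.86 to 9.92) and Trib3 at 6.40 (others 7.32 to 7.63). The mean over the sterol synthesis list was 7.71 on 120 ppm array 5 (others 7.23 to 7.32). The mean over the proteasome subunit list was 9.65 on 120 ppm array 5 (others 9.42 to 9.47). The mean over the cytosolic ribosomal proteins list was 12.03 on 120 ppm array 5 (others 11.98 to 11.99).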

How the results depend on the processing

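Against clean air, the counts of 7342 risen and 5450 fallen genes stayed within 1.5 times under quantile normalization (5837 and 5321), removal of each array's level trend (5416 and 5491), a fit of the 10 arrays alone (6091 and 5175), omission of 120 ppm arrays 4 and 5, trended and robust variance, array weights, and an adjusted p under 0.1. They ranged from 6919 to 7381 and from 5315 to 5577 when single arrays were left out, and were 6448 and 5181 without clean-air arrays 3 and 4, chosen after seeing the data. Beyond that factor were 16661 risen and 13485 fallen over all probe sets tested apart, 2926 risen among genes above the floor, 3684 risen with at least a 1.5-fold change, and 2147 risen and 2342 fallen with the poly-A mean as a covariate; other features or a stricter rule enter the first 3, and the cause was not tested for the last. Against 40 ppm, 10648 were higher with arrays centred, and the same 4 settings gave 15207 higher and 12299 lower, 2801 higher, 3266 higher, and 1293 higher and 1945 lower. Among genes above the floor, 8 interferon genes, 8 replication genes, 1 mitosis gene and 6 keratin genes rose, since fewer members are tested there. Over the 50 lists, each followed by its count in 1 direction, the count moved by over 1.5 times for 13 with arrays centred, 9 with the level trend removed, 7 under quantile normalization and 4 in a fit of the 10 arrays alone. With arrays centred these were 23 risen for mitosis, 10 for EGF receptor ligands, 7 for MHC class II, 2 for neutrophils, 6 for T cells, 9 for mast cells and eosinophils, 9 for skeletal muscle and 4 for erythroid cells, and 5 fallen for alveolar macrophages, 3 for interstitial macrophages and monocytes, 1 for alveolar type 2 cells, 1 for NK cells and 1 for cardiac muscle. With the level trend removed 5 alveolar macrophage markers fell. The others, in the latter 3 settings, were lists of alveolar type 2 cells, lymphocytes, mast cells, muscle and adipocytes. The cause was not tested. With arrays centred the sign turned for Scgb1a1 (0.055), Napsa (0.0214), Psme1 (0.10) and Sftpa1 (0.22), and for Sftpa1 with the level trend removed (0.0295). The Gapdh 3' minus 5' difference ranged from -0.00986 (without clean-air array 3) to 0.0331 (without 120 ppm array 5) when single arrays were left out, against 0.0095 with all, and was also below 0 without 120 ppm arrays 3 (-0.00226) or 4 (-0.00941). Replicate numbers did not pair the arrays, since same-numbered clean-air and 120 ppm arrays had correlations of 0.187, 0.0085, 0.106, 0.212 and 0.118, and 2 of the 5 matched their own number best. With the number as a replicate block 7362 genes rose and 5537 fell, and none of 211 printed genes changed its call. Signal at the floor limits what can be said of 9314 genes that were not above it on all arrays of either group.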

Other observations

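Other groups of genes also divided at 120 ppm, against a background of 42.9% risen and 31.9% fallen (37.4% and 51.2% among genes above the floor). Of 19 genes of glycolysis and hypoxia 9 rose and 7 fell (median -0.08, or 0.32 with arrays centred), of 28 of ribosome biogenesis 8 rose and 10 fell (median 0.08), of 17 of the circadian clock 6 rose and 5 fell (Arntl, Per3, Npas2, Clock and Per2; median -0.06, or 0.34 with arrays centred), and of 15 targets of the glucocorticoid receptor 6 rose and 6 fell (median -0.50). Among 14 genes of goblet cells and mucus 6 rose and 1, the airway mucin Muc5b, fell (median 0.25), and 3 of the 14 lay above the floor on all arrays of a group.

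Markers of lymphocytes and of other tissues were mostly dim. Of 8 B cell markers 2 rose (Cd79a and Pax5) and 1 fell (Ms4a1), of 8 T cell markers 2 rose (Cd3e and Cd5) and 2 fell (Cd3d and Cd3g), and of 7 NK cell markers 2 fell (Gzma and Ncr1). Mast cell and eosinophil markers had means of 3.52 to 3.67 in clean air and 3.58 to 3.93 at 120 ppm, with 4 of 9 risen (Mcpt8, Tpsb2, Prg2 and Epx). In the 3 dimmest of 10 classes of level, 927 of 1710, 959 of 1710 and 954 of 1709 genes of any kind rose, and with the level trend removed 1 of these 9 markers rose and 1 fell. Of 8 mesothelial markers 4 fell (Bnc1, Gpm6a, Lrrn4 and Upk1b) and Msln rose, and of 10 cardiac markers 3 fell (Csrp3, Tnnt2 and Ankrd1), with means of 6.53 to 7.67 in clean air and 5.99 to 7.24 at 120 ppm. Of 9 skeletal muscle markers 3 rose (Acta1, Myh4 and Myh1), of 4 erythroid markers 2 rose (Slc4a1 and Alas2), and of 4 adipocyte markers Lep rose and Retn fell. Counts for NK cells, erythroid cells, skeletal muscle and adipocytes moved by over 1.5 times when single arrays were left out (1 to 3, 1 to 2, 1 to 4, and 0 to 1). The part of these cell types in the other results was not tested.

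Of 15588 probe sets that are not listed with a gene, 5338 were higher and 3940 lower at 120 ppm in limma, at an adjusted p under 0.05 over these probe sets.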
